A study of Mus musculus with 9 samples.

Results

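A set of 35 genes of activated microglia and macrophages was followed through a mouse stroke experiment. They were taken by gene symbol from a list, with the row of highest mean count standing for each symbol, and all 35 were found among the 55385 gene rows of the deposited table. Of these, 32 passed a filter on low values and were tested, among 16982 genes tested in all, and Cybb, Cst7 and Ptprc did not pass. All libraries came from male C57BL/6 mice aged 8 to 10 weeks, with 3 libraries in each of 3 groups. Sham mice had the surgery without arterial occlusion. In tMCAO mice (transient middle cerebral artery occlusion, a model of ischemic stroke) a filament blocked the artery for 90 min before reperfusion. Celastrol mice had the same occlusion and were given celastrol, a plant triterpenoid, at 4.5 mg/kg by intraperitoneal injection at the onset of reperfusion, so this group carries both the occlusion and the compound. No group received celastrol without occlusion. Total RNA of the ischemic hemisphere was depleted of ribosomal RNA and sequenced. The sources used here do not give the interval between reperfusion and sampling, nor how many animals stand behind a library. A p-value therefore measures only how far these libraries spread, which may be technical.

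Microglia are the resident macrophages of the brain, and after ischemia they are joined by monocytes and other macrophages from blood and brain borders. Activated cells of both kinds take up dead cells and debris through scavenger and pattern recognition receptors, digest the load in lysosomes, store its lipid in droplets and make superoxide with the phagocyte NADPH oxidase. The receptor Trem2 with its adaptor Tyrobp is a known driver of a phagocytic, lipid-handling microglial state, in which genes such as Spp1, Gpnmb, Lgals3, Lpl and Cst7 are high and homeostatic genes such as P2ry12 are low. Spi1 encodes PU.1, an ETS factor on which the whole myeloid lineage depends.

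Promoter sequence is shown for 3 of the genes whose values per library are given below and whose upstream sequence holds a motif of a factor class known from macrophages. RefSeq promoters on build GRCm38.p6 were matched by symbol for 26 of the 35 genes, and the 250 bases before the RefSeq start were searched on both strands. For 13 of the 26 this window overlaps the gene as the deposited table gives it, Gpr84 and Ctsd among them, and all 3 runs shown lie outside their genes. Each run is written 5′ to 3′ on the strand of its gene, and capitals mark the motif: ACTTCC, the reverse complement of the ETS factor core GGAAGT, for Chil3; the longer form GAGGAAGT, which contains GGAAGT, for Spp1; and TGAGTCA, the AP-1 motif, for Cd68.
Chil3 (chr3:106167565-106167814, minus strand): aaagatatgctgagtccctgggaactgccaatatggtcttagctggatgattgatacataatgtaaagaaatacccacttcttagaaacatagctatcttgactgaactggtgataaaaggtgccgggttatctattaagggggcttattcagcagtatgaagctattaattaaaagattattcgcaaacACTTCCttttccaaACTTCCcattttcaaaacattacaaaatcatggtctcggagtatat
Spp1 (chr5:104434861-104435110, plus strand): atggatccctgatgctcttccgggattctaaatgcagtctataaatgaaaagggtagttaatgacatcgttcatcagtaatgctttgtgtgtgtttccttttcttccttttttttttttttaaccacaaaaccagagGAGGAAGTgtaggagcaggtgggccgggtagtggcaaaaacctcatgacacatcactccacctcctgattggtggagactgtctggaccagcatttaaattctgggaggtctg
Cd68 (chr11:69666171-69666420, minus strand): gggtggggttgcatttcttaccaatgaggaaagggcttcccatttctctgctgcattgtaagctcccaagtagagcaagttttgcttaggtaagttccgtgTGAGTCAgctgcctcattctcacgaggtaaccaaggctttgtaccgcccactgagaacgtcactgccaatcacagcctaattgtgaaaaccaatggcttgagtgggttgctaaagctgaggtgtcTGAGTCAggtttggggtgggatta
GGAAGT was found in the windows of 10 of the 26 genes (38.5%), against 6485 of 32851 promoters of the same length (19.7%). A gene counted if any promoter entry of its symbol matched, while the share of all promoters is counted by entry, so the 2 shares differ in unit. The 10 genes were Cd36, Cd63, Chil3, Cst7, Gpr84, Laptm5, Lyz2, Mrc1, Ptprc and Spp1. Of these, the windows of Cd36, Cd63, Gpr84, Laptm5, Lyz2, Mrc1 and Ptprc are among the 13 that overlap the gene. GAGGAAGT was found in 1 of 26 (3.85%, against 2.44% of all promoters) and TGAGTCA in 1 of 26 (against 4.46%). CACGTG, the E-box of lysosomal gene regulators, was found in the window of Ctsd alone among the 26, against 6.02% of all promoters. These motifs were chosen with the members known, and a match describes the sequence and nothing about binding.

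Total estimated counts ran from 60392960 to 75158625 per library, and mitochondrial genes took 5.80% to 7.39% of them. Neuron, astrocyte and oligodendrocyte markers were abundant in all 9 libraries (summed FPKM of at least 749.7, 396.2 and 290.2), while markers of choroid plexus ran from 2.52 to 1316 and those of striatum from 53.7 to 381, within groups as well as between them. Levels are the deposited FPKM, which scale fragments by transcript length and by the size of the library. Among the occluded libraries, tMCAO replicate 3 and celastrol replicate 2 stood apart. The 35 genes' median log2 change from the sham mean, on the log2(FPKM + 0.5) scale, was 0.82, 0.30 and 1.48 in tMCAO replicates 1, 2 and 3 and 1.04, 0.25 and 0.74 in celastrol replicates 1, 2 and 3. Of the 35 genes, 25 were highest in tMCAO replicate 3, and 20 had their lowest occluded level in celastrol replicate 2.

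**Figure D1:**
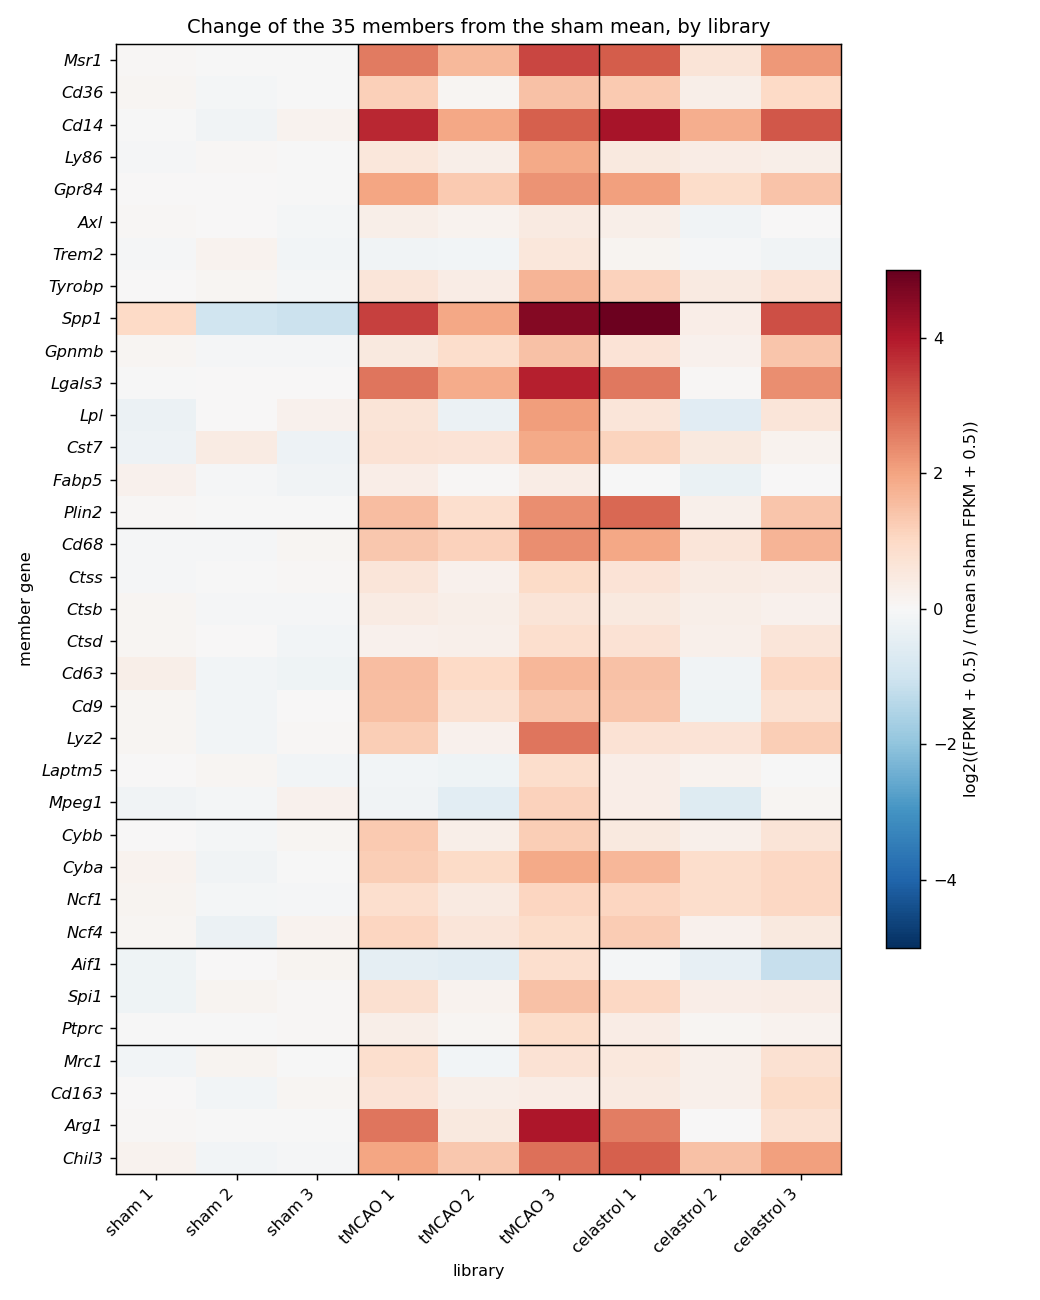
Change of the 35 genes from the sham mean in each library, as log2((FPKM + 0.5) / (mean sham FPKM + 0.5)), with genes grouped by role (rows) and libraries by group (columns). Most genes are higher in the occluded libraries, most strongly in tMCAO replicate 3 and celastrol replicate 1, while tMCAO replicate 2 and celastrol replicate 2 are paler.

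The comparison of tMCAO with sham addresses the effect of the occlusion and reperfusion on these genes. The fitted log2 fold change was above 0 for all 32 tested genes (50.9% of all genes tested), with a median of 1.26 against 0.0072 over all genes tested. The scavenger receptor Msr1 (7.60 ± 1.22, SE), Arg1 (7.88 ± 2.09), Chil3 (5.11 ± 0.98) and Lgals3 (4.47 ± 0.95) differed most in fitted size, and Aif1, Trem2, Laptm5, Fabp5, Axl and Mpeg1 had values from 0.01 to 0.24. In FPKM, the 3 tMCAO libraries all lay above the 3 sham libraries for 27 of the 35 genes, of which 24 were among the 32 tested, compared with 18.8% of all genes tested. An unadjusted p under 0.05 was reached by 23 of the 32 genes, all higher, compared with 8.56% of all genes tested, and by 14 of the 23 genes with a sham library at or above the filter minimum of 0.5 FPKM. No gene passed the Benjamini-Hochberg adjusted threshold of 0.05 in edgeR's quasi-likelihood test (0 of 32, with 0.00% of all genes tested called higher). DESeq2 on the same genes called 16 of the 32, with 3.28% of all its genes called higher. Among these 16, Arg1, Cd36, Chil3, Gpnmb, Gpr84, Lgals3 and Msr1 had no sham library at or above 0.5 FPKM. Their calls are partly set by the filter, as described below. Leaving out celastrol replicate 2, which belongs to neither group but shares the estimate of the spread, edgeR called 5 of the genes (Cd14, Cd63, Gpr84, Lgals3 and Msr1; 0.477% of all genes). Gpr84, Lgals3 and Msr1 among these 5 also had no sham library at or above 0.5 FPKM. Without tMCAO replicate 3 the median was 0.83 and the unadjusted count 17, and the share of all genes at that setting was not computed. In bulk tissue, more cells of a type and more RNA per cell cannot be told apart.

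Of the 32 genes, 9 had no sham library at or above 0.5 FPKM and so passed the filter through occluded libraries alone: Msr1, Cd36, Gpr84, Gpnmb, Lgals3, Ncf4, Cd163, Arg1 and Chil3. Such genes had to be higher to be tested, and all 9 reached an unadjusted p under 0.05 (median 3.12), so they are counted apart. The other 23 genes had a median of 0.95. Among these 23, an unadjusted p under 0.05 was reached by 14 in tMCAO against sham, 11 in celastrol against sham and 16 in both occluded groups against sham, all higher. In the same order, FPKM ranges were apart (higher) for 16, 13 and 12 of the 23.

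Sham mean levels spanned 0.0111 FPKM (Arg1) to 129.6 FPKM (Ctsd), with 14 of the 35 genes below 1. In tMCAO the range was 0.456 (Ptprc) to 179.8 (Ctsd), with 5 genes below 1, and with celastrol 0.293 (Ptprc) to 188.1 (Ctsd), with 7 below 1. Ctsd was the most abundant gene in each group, and Ptprc the least in both occluded groups.

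The 12 genes with the smallest unadjusted p when both occluded groups were set against sham are given library by library, since no gene passed the adjusted threshold. That comparison uses all 6 occluded libraries, and its edgeR calls were 0 of 32, with 0.00589% of all genes tested called higher. Of the 32 genes, 25 reached an unadjusted p under 0.05, all higher (8.00% of all genes tested), and 30 had a fold change above 0 (50.3% of all genes tested; median 0.98, against 0.0022 over all genes tested). All 6 occluded libraries lay above all 3 sham libraries for 21 of the 35 genes, of which 19 were tested (5.14% of all genes tested). DESeq2 called 16 of the 32 (3.51% of its genes called higher), and edgeR without celastrol replicate 2 called 8 (1.01%). The 16 include Arg1, Cd36, Chil3, Gpnmb, Gpr84, Lgals3 and Msr1, and the 8 include Chil3, Gpr84, Lgals3 and Msr1. All of these had to be higher to be tested.

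**Figure D2:**
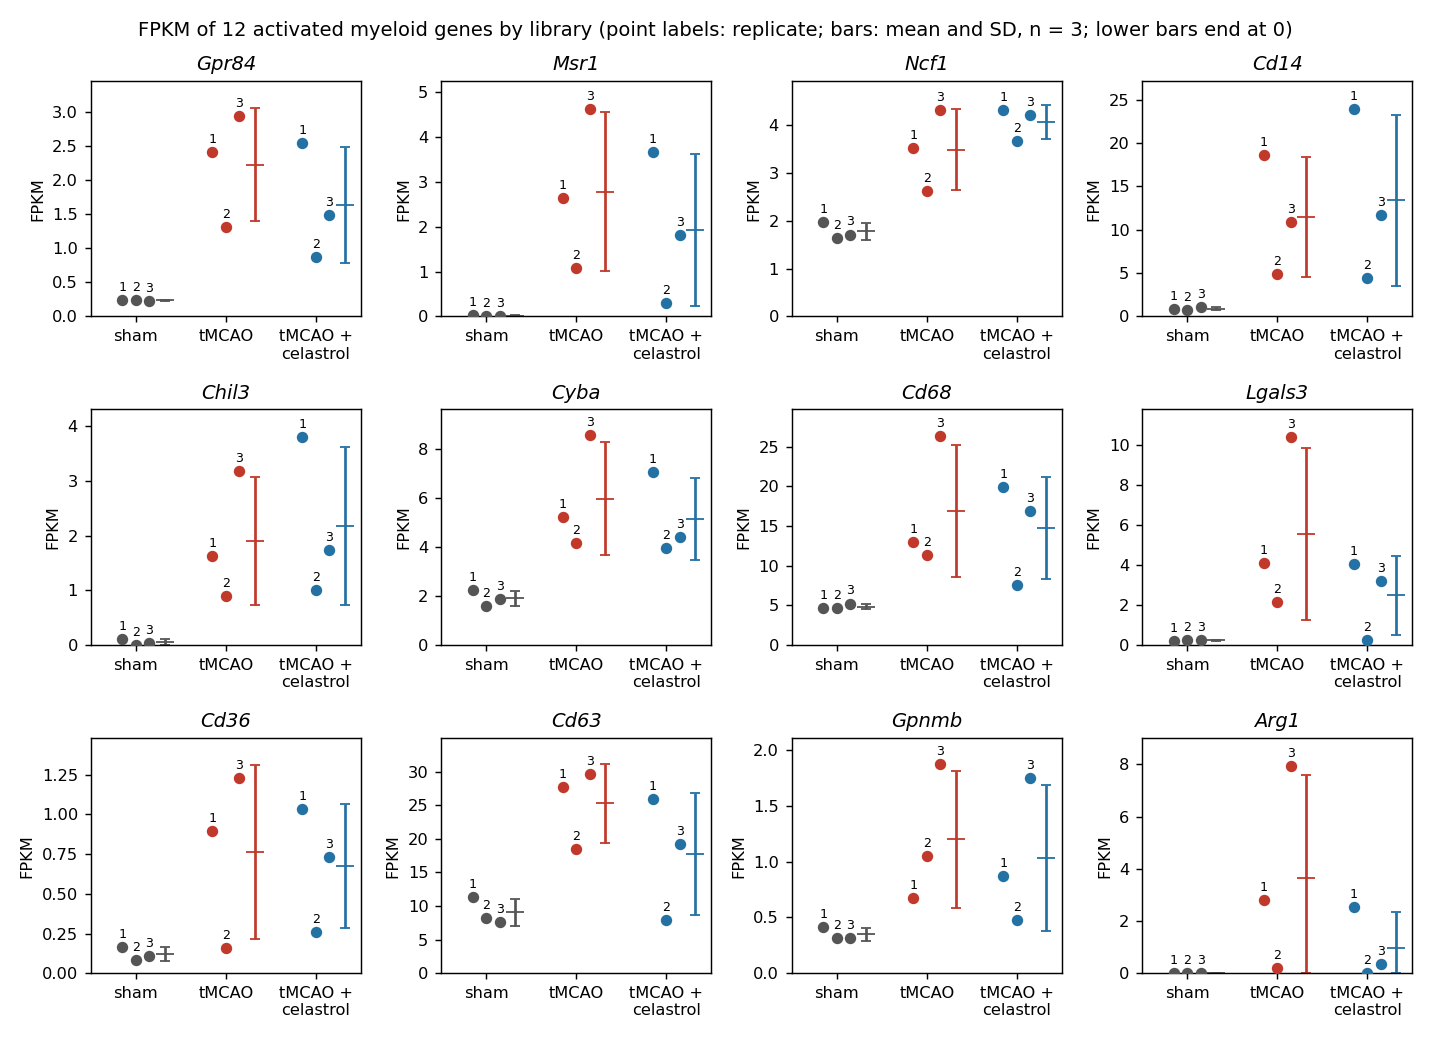
FPKM of the 12 genes in each library, with libraries numbered by replicate and bars for the group mean and SD (n = 3; lower bars end at 0). The sham libraries cluster near the axis or at a low level for each gene. The occluded libraries spread over a several-fold range for most genes, less so for Ncf1 and Cyba, with celastrol replicate 2 at or near the bottom for most.

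Among the receptors and signalling adaptors, 6 of 8 reached an unadjusted p under 0.05 in tMCAO against sham (median log2 fold change 1.897; 8.56% of all genes tested), 3 of them (Msr1, Cd36 and Gpr84) tested through occluded libraries alone, and 0 passed the adjusted threshold. Gpr84 (mm10 chr15:103308235-103310612, minus strand), a receptor for medium-chain fatty acids that macrophages make on activation, lay at 0.240, 0.244 and 0.223 FPKM in sham replicates 1, 2 and 3. It lay at 2.42, 1.32 and 2.95 in tMCAO and at 2.55, 0.874 and 1.495 with celastrol, so that the groups of occluded and sham libraries did not overlap. Its log2 fold change in both occluded groups against sham was 2.91 ± 0.41 (SE; edgeR adjusted p = 0.0769). Msr1 (mm10 chr8:39581685-39642673), which takes up modified lipoproteins and debris, had 15, 4 and 0 counts in sham, 1359, 557 and 2036 in tMCAO and 1814, 142 and 984 with celastrol. Its level was 0.0275, 0.00840 and 0 FPKM in sham, 2.64, 1.09 and 4.63 in tMCAO and 3.67, 0.294 and 1.82 with celastrol, lowest among the occluded libraries in celastrol replicate 2. The log2 fold change was 7.34 ± 1.18 (SE; edgeR adjusted p = 0.0769).

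Cd14, the co-receptor that hands lipopolysaccharide to Toll-like receptor complexes, lay at 0.887, 0.744 and 1.12 FPKM in sham, 18.7, 4.90 and 10.9 in tMCAO and 24.0, 4.48 and 11.7 with celastrol. No occluded library fell within the sham range. Its log2 fold change was 3.66 ± 0.62 (SE; edgeR adjusted p = 0.0769). Cd36 (mm10 chr5:17781690-17888801), a fatty acid and oxidised-lipid scavenger receptor, lay at 0.169, 0.0852 and 0.106 in sham, 0.897, 0.159 and 1.23 in tMCAO and 1.03, 0.262 and 0.733 with celastrol. The tMCAO replicate 2 library overlapped sham, and the log2 fold change was 2.45 ± 0.68 (SE; edgeR adjusted p = 0.201).

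Ly86, which encodes MD-1 and partners a Toll-like receptor homologue, was 1.96, 1.54 and 5.79 FPKM in tMCAO against 1.13, 1.28 and 1.15 in sham, with most of the difference in tMCAO replicate 3: the log2 fold change was 1.27 ± 0.43 and 0.47 without that library. Tyrobp, the signalling adaptor of Trem2, had 0.95 ± 0.33 (0.44 without tMCAO replicate 3). Trem2 itself lay at 1.54, 1.88 and 1.42 FPKM in sham and 1.38, 1.42 and 2.66 in tMCAO, with overlapping ranges and a log2 fold change of 0.07 ± 0.27 that was −0.29 without tMCAO replicate 3 and −0.01 without sham replicate 3. For the efferocytosis receptor Axl the value was 0.23 ± 0.12.

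Of the secreted, lipid handling and protease inhibitor genes, 4 of 6 tested (out of 7) reached an unadjusted p under 0.05 in tMCAO against sham (median 1.79; 8.56% of all genes tested), 2 of them (Gpnmb and Lgals3) tested through occluded libraries alone, and 0 passed the adjusted threshold. Lgals3 (mm10 chr14:47367751-47386160), which encodes the galactose-binding lectin galectin-3, lay at 0.220, 0.229 and 0.234 FPKM in sham. It lay at 4.09, 2.16 and 10.4 in tMCAO and at 4.02, 0.260 and 3.18 with celastrol, where replicate 2 was close to sham and the other libraries were several-fold higher. The log2 fold change of both occluded groups was 3.90 ± 0.88 (SE; edgeR adjusted p = 0.142). Gpnmb (mm10 chr6:49036546-49070929), a transmembrane glycoprotein of lipid-laden macrophages, was 0.416, 0.315 and 0.316 FPKM in sham, 0.675, 1.05 and 1.87 in tMCAO and 0.872, 0.474 and 1.75 with celastrol. All 6 occluded libraries lay above sham, by a little in celastrol replicate 2, and the log2 fold change was 1.58 ± 0.45 (SE; edgeR adjusted p = 0.203).

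Spp1, which encodes the secreted matrix protein osteopontin, had the widest spread of levels. It lay at 16.6, 3.82 and 3.58 FPKM in sham, with sham replicate 1 above the others, at 90.4, 31.7 and 202 in tMCAO and at 251, 10.3 and 78.9 with celastrol. Celastrol replicate 2 overlapped the sham range. The tMCAO log2 fold change was 3.66 ± 1.15 (SE; edgeR adjusted p = 0.222). Plin2, the coat protein of lipid droplets, was 4.69, 2.69 and 8.33 FPKM in tMCAO against 1.35, 1.24 and 1.25 in sham. Lpl, which releases fatty acids from lipoproteins, had a tMCAO log2 fold change of 1.26 ± 0.65, or 0.23 without tMCAO replicate 3, and its ranges overlapped. Fabp5, a fatty acid carrier, was 18.6, 15.4 and 14.3 FPKM in sham and 20.5, 17.0 and 20.8 in tMCAO, with a log2 fold change of 0.18 ± 0.13, 0.27 without sham replicate 1 and 0.10 without sham replicate 3. Cst7, a cystatin of the lysosomal protease inhibitors, had 0, 21 and 0 counts in sham and 40, 37 and 118 in tMCAO and was not tested.

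Lysosome, phagosome and tetraspanin genes had smaller fold changes at higher levels: 6 of 9 reached an unadjusted p under 0.05 in tMCAO against sham (median 0.53; 8.56% of all genes tested), and 0 passed the adjusted threshold. Cd68 (mm10 chr11:69664213-69666153), a lysosomal glycoprotein of phagocytes, was 4.64, 4.65 and 5.23 FPKM in sham, 13, 11.3 and 26.4 in tMCAO and 19.9, 7.60 and 16.9 with celastrol, with no overlap. The log2 fold change in both occluded groups was 1.61 ± 0.35 (SE; edgeR adjusted p = 0.126). Cd63 (mm10 chr10:128900989-128912822), a tetraspanin of late endosomes, was 11.3, 8.22 and 7.66 FPKM in sham, 27.6, 18.5 and 29.6 in tMCAO and 25.9, 8.00 and 19.2 with celastrol. Celastrol replicate 2 lay inside the sham range, and the log2 fold change was 1.14 ± 0.32 (SE; edgeR adjusted p = 0.203). The tetraspanin Cd9 had a tMCAO log2 fold change of 1.19 ± 0.34.

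Among the lysosomal proteases, the fold changes in tMCAO were 0.53 ± 0.17 for Ctss, 0.37 ± 0.11 for Ctsb and 0.37 ± 0.17 for Ctsd on the log2 scale. Without tMCAO replicate 3 they were 0.35 for Ctss and 0.15 for Ctsd. Their FPKM ranges in tMCAO and sham did not overlap for any of the 3, though Ctsd lay at 152, 153 and 234 in tMCAO against 140.1, 130.4 and 118 in sham. Lyz2, which encodes lysozyme, had 1.72 ± 0.53, or 0.79 without tMCAO replicate 3. For Laptm5, a lysosomal membrane protein, and Mpeg1, a pore-forming protein of phagosomes, the fold changes were 0.17 ± 0.28 and 0.24 ± 0.43, and they were −0.28 and −0.46 without tMCAO replicate 3. Ctsb overlaps Fdft1 on the opposite strand, whose mean count of 6333 was below its own 49472.

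All 3 tested subunits of the phagocyte NADPH oxidase reached an unadjusted p under 0.05 in tMCAO against sham (median 1.43; 8.56% of all genes tested), Ncf4 tested through occluded libraries alone, and 0 passed the adjusted threshold. Cyba (mm10 chr8:122424776-122432930), the p22phox subunit of the membrane core, was 2.23, 1.61 and 1.89 FPKM in sham, 5.21, 4.17 and 8.55 in tMCAO and 7.06, 3.95 and 4.41 with celastrol. Its occluded and sham libraries did not overlap, and the log2 fold change of both occluded groups was 1.45 ± 0.29 (SE; edgeR adjusted p = 0.109). Ncf1 (mm10 chr5:134220053-134229625), the p47phox organiser of the enzyme, was 1.98, 1.64 and 1.72 FPKM in sham, 3.52, 2.62 and 4.32 in tMCAO and 4.33, 3.67 and 4.21 with celastrol, where the 3 libraries lay close together. Its log2 fold change was 1.003 ± 0.16 (SE; edgeR adjusted p = 0.0769). Ncf1 overlaps Gtf2ird2 on the opposite strand, with mean counts of 883.8 and 1077, and the sources used here do not say whether counting used strand, so its level is uncertain. Ncf4, the p40phox subunit, had a tMCAO log2 fold change of 1.43 ± 0.47. Cybb, the catalytic membrane subunit, was 0.0905, 0.0458 and 0.128 FPKM in sham, 0.956, 0.216 and 0.891 in tMCAO and 0.321, 0.201 and 0.429 with celastrol, below the filter.

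Of the 2 tested pan-myeloid genes, 1 reached an unadjusted p under 0.05 (Spi1; 8.56% of all genes tested). Aif1, which encodes the actin-binding protein Iba1 used to mark microglia, was 1.71, 2.12 and 2.33 FPKM in sham, 1.37, 1.26 and 4.09 in tMCAO and 1.87, 1.40 and 0.659 with celastrol. Its ranges overlapped, and the tMCAO log2 fold change was 0.01 ± 0.51, or −0.73 without tMCAO replicate 3. Spi1 had 1.09 ± 0.41, or 0.62 without tMCAO replicate 3, with 0.787, 1.18 and 1.07 FPKM in sham and 2.14, 1.20 and 3.67 in tMCAO. Ptprc, the pan-leukocyte CD45, stayed below 0.5 FPKM in all libraries but tMCAO replicate 3 (0.784).

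Of the alternative activation and tissue macrophage genes, 3 of 4 reached an unadjusted p under 0.05 in tMCAO against sham (median 2.95; 8.56% of all genes tested), and 0 passed the adjusted threshold. These 3, Arg1, Chil3 and Cd163, passed the filter through occluded libraries alone and had to be higher to be tested, and Mrc1, the only other member, had an unadjusted p of 0.0792 in the edgeR test. Chil3 (mm10 chr3:106147554-106167564), a chitinase-like secreted protein, had 15, 0 and 4 counts in sham, 216, 118 and 362 in tMCAO and 483, 125 and 243 with celastrol. Its levels were 0.112, 0 and 0.0299 FPKM in sham, 1.63, 0.894 and 3.19 in tMCAO and 3.80, 1.002 and 1.74 with celastrol, without overlap. The log2 fold change of both occluded groups was 5.22 ± 0.95 (SE; edgeR adjusted p = 0.0896); its close copy Chil4 had 0 counts in all libraries. Arg1 (mm10 chr10:24915221-24927484), an arginine-degrading enzyme, had 7, 0 and 0 counts in sham, 506, 40 and 1230 in tMCAO and 443, 4 and 69 with celastrol. Arg1 was highest in tMCAO replicate 3, and celastrol replicate 2 lay within the sham range. Its log2 fold change was 6.93 ± 1.98 (SE; edgeR adjusted p = 0.205), and 11.27 without sham replicate 1, the only sham library with counts. Mrc1, the mannose receptor, and Cd163, the haemoglobin scavenger receptor, had tMCAO log2 fold changes of 0.78 ± 0.40 and 0.79 ± 0.33, and Mrc1 had 0.50 without tMCAO replicate 1.

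**Figure D3:**
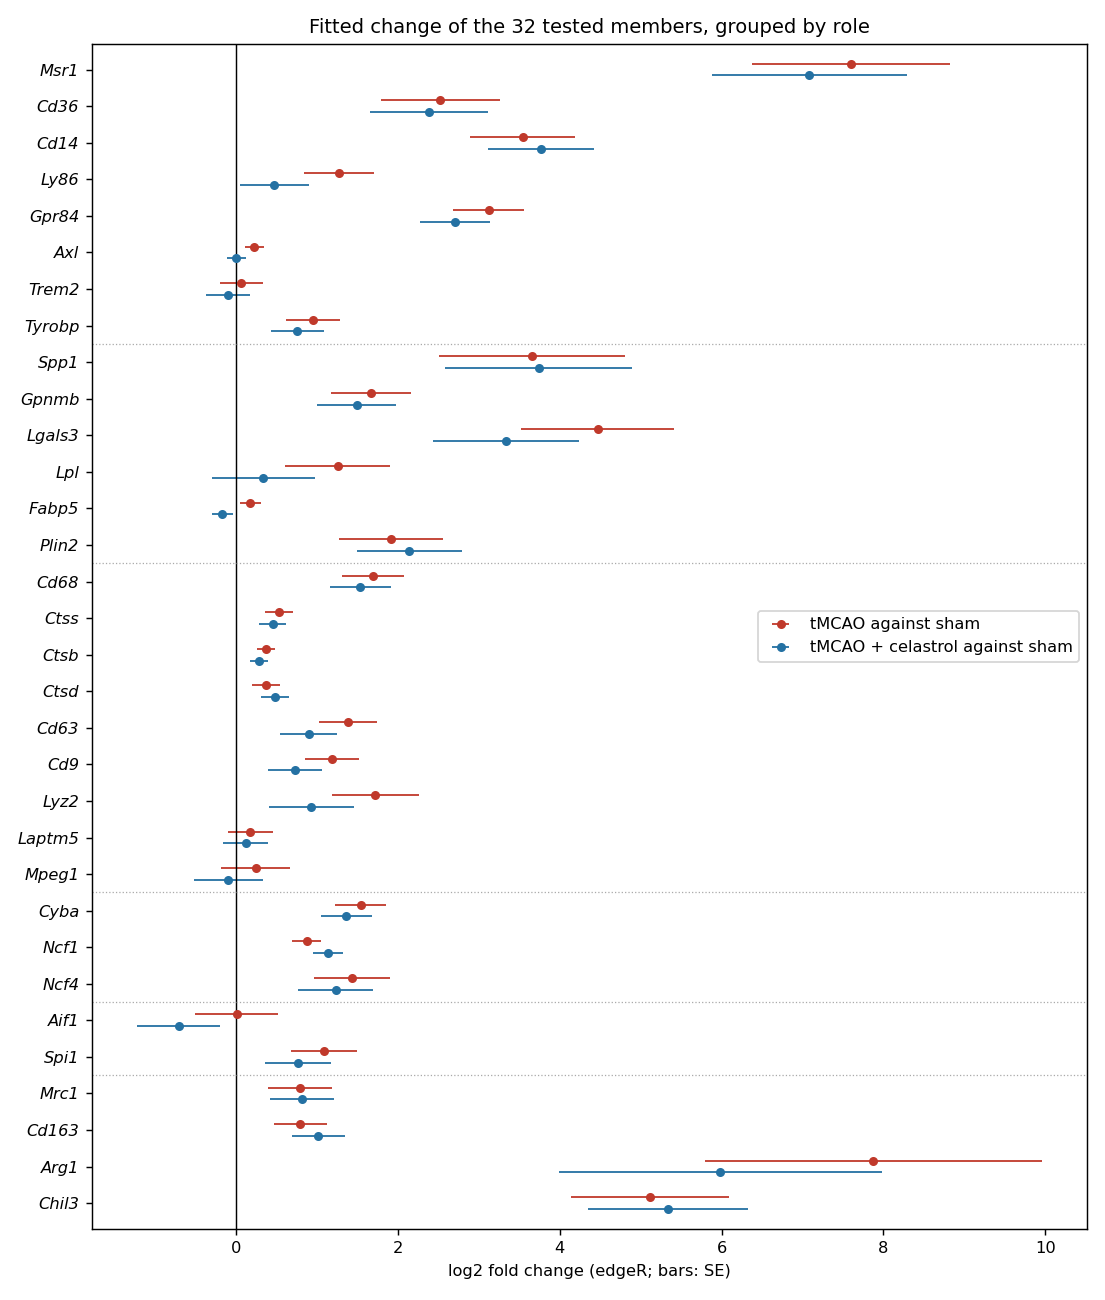
Fitted log2 fold change (edgeR, bars: SE) of the 32 tested genes, grouped by role, for tMCAO against sham (red) and for tMCAO with celastrol against sham (blue). Both comparisons share the sham libraries; Msr1, Arg1 and Chil3 lie farthest to the right, and the celastrol values lie close to the tMCAO values for most genes.

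The comparison of celastrol-treated occluded mice with sham shares its sham libraries with the first comparison, so the 2 sets of values are given side by side. Of the 32 genes, 20 reached an unadjusted p under 0.05, all higher (5.69% of all genes tested), and 0 passed the adjusted threshold in edgeR (0.00589% of all genes tested called higher). The median log2 fold change was 0.91, against 0.0029 over all genes tested, and 28 of 32 were above 0 (50.4% of all genes tested). FPKM ranges were apart from sham for 23 of the 35 genes, 21 of them tested (8.91% of all genes tested). The log2 fold changes were 7.08 ± 1.20 for Msr1, 5.33 ± 0.99 for Chil3, 3.77 ± 0.65 for Cd14, 2.70 ± 0.43 for Gpr84, 1.36 ± 0.31 for Cyba and 1.14 ± 0.18 for Ncf1. DESeq2 called 11 of the 32 (1.85% of its genes called higher), and edgeR without celastrol replicate 2 called 3 (0.259%). The 11 include Cd36, Chil3, Gpr84, Lgals3 and Msr1, and the 3 include Gpr84 and Msr1. All of these had to be higher to be tested. Without celastrol replicate 1 the unadjusted count was 13, and the share of all genes at that setting was not computed.

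The comparison of celastrol with tMCAO asks what the compound changes after the same occlusion. The data gave no difference past the adjusted threshold: 0 of 32 genes were called in edgeR, with 0.00% of all genes tested called higher, and 0 by DESeq2, which called 0.0708% of its genes higher. The median log2 difference was −0.19 (celastrol minus tMCAO), against −0.0040 over all genes tested, and 8 of 32 genes lay above 0 (49.3% of all genes tested). The median was 0.15 without tMCAO replicate 3. Fabp5 alone had an unadjusted p under 0.05 (lower; 1.86% of all genes tested) and FPKM ranges apart (lower; 5.31% of all genes tested), at 15.8, 12.6 and 16.2 FPKM with celastrol and 20.5, 17.0 and 20.8 in tMCAO, a log2 difference of −0.34 ± 0.13 (SE; edgeR adjusted p = 0.976). The unadjusted count was 0 to 4 over the fits that left out 1 library, and the count of lower ranges apart was 10 without tMCAO replicate 2. Leaving out a library cannot lower a count of ranges apart, and the matching shares of all genes were not computed.

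The log2 differences ran from −1.89 ± 1.47 (SE) for Arg1 and −1.13 ± 0.81 for Lgals3 to 0.27 ± 0.18 for Ncf1, and without tMCAO replicate 3 the first 2 were −0.65 and −0.33. Arg1 was at −4.17 without celastrol replicate 1, Lgals3 at −0.61 without celastrol replicate 2, and Ncf1 at 0.10 and 0.43 without tMCAO replicates 2 and 3. For Ly86 the difference was −0.80 ± 0.43, and −0.0033 without tMCAO replicate 3. None of these passed the test, and a p that misses the threshold does not show that the groups are alike.

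Genes of the same pathways that were not on the list were also tested, in both occluded groups against sham. None passed the adjusted threshold, and members of these lists are counted at an unadjusted p under 0.05, which 8.00% of all genes tested reached as higher and 5.39% as lower. These lists were not split by how genes passed the filter. Some genes, such as Lat2 of the TREM2 list (at most 0.498 FPKM in sham), passed through occluded libraries alone and had to be higher to be tested. Of 13 tested TREM2 and TYROBP signalling partners, 6 were higher and 0 lower (median 0.51), with the signalling adaptor Card9 at 1.10 ± 0.24 (SE) and the phospholipase Plcg2 at 0.70 ± 0.17. Of 22 other lysosomal genes, 9 were higher and 0 lower (median 0.28), including the proteases Ctsc (1.65 ± 0.31) and Ctsl (1.01 ± 0.22). Of 13 other macrophage lipid genes, 3 were higher (median 0.09), among them Ch25h, which makes 25-hydroxycholesterol (2.60 ± 0.42), and the cholesterol exporter Abca1 (0.51 ± 0.14).

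Of 10 dead cell uptake genes, 2 were higher and 2 lower (median 0.01), with the bridging ligand Pros1 at 1.49 ± 0.32 and the receptor Tyro3 at −0.96 ± 0.22. Of 10 myeloid transcription factors, 3 were higher (median 0.47), including Irf5 (0.94 ± 0.26) and Cebpb (1.25 ± 0.36). Apoe is in both the TREM2 and the lipid list.

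Markers of several other cell types also differed between occluded and sham libraries, in both directions and not always in the same libraries as the 35 genes. Their part in the results above was not tested. Of 11 homeostatic microglia genes, 0 were higher and 5 lower at an unadjusted p under 0.05 in both occluded groups (median −0.55, with 8.00% and 5.39% of all genes tested), led by the purinergic receptor P2ry12 (−1.71 ± 0.23; edgeR adjusted p = 0.0656) and by Siglech (−0.69 ± 0.26). Their summed FPKM was 89.8 to 109 in sham, 78.5 to 172 in tMCAO, highest in tMCAO replicate 3, and 95.9 to 124 with celastrol. Of 12 neutrophil markers, 6 were tested and 4 were higher (median 3.67), with S100a9 at 3.69 ± 0.64 and Mmp8 at 5.76 ± 1.34. Among those tested, Ngp (at most 0.240 FPKM in sham) and Retnlg (0 counts in sham) passed the filter through occluded libraries alone. Such genes had to be higher to be tested, so this count and median are partly set by the filter. Neutrophil markers summed to 2.41 to 4.30 FPKM in sham, 14.2 to 28.1 in tMCAO and 17.0 to 49.2 with celastrol. Among the occluded libraries that sum was lowest in tMCAO replicate 3. Some markers on this list had few or no counts: Elane had 0 in all libraries, Ly6g had 5 in celastrol replicate 2 alone, and Mpo and Camp had at most 21. Other markers on the list were at 0 in sham and present after occlusion: Cxcr2 had 98, 57 and 182 counts in tMCAO and 61, 8 and 46 with celastrol, and Retnlg had 149, 123 and 0 in tMCAO and 110, 44 and 83 with celastrol, at least 78.1-fold higher in the occluded groups with sham at a floor of 3 counts over the group. The median stays at 3.67 with Retnlg at that bound. Ngp had 24, 0 and 11 counts in sham, 8, 42 and 0 in tMCAO and 439, 113 and 416 with celastrol, and Ltf had 8, 4 and 4, then 23, 16 and 0, then 189, 26 and 172. Monocyte markers summed to 7.21 to 10.5, 11.5 to 21.4 and 11.3 to 17.4 FPKM in the same order, with 2 of 4 tested higher, S100a4 (1.73 ± 0.59) and Vcan (0.45 ± 0.16). Border-associated macrophage markers summed to 2.98 to 3.68, 4.08 to 10.7 and 6.03 to 12.2, and 4 of 5 tested were higher, F13a1 (1.49 ± 0.35) and Stab1 (1.14 ± 0.32) among them. Lymphocyte markers summed to at most 0.113 FPKM. Of 5 endothelial markers, 3 were higher, Pecam1 (1.05 ± 0.27), Cdh5 (1.17 ± 0.42) and Cldn5 (0.49 ± 0.18), and their sum was 24.5 to 30.2 FPKM in sham, 35.04 to 51.9 in tMCAO and 30.8 to 63.0 with celastrol, above sham in all 6 occluded libraries. Of 6 neuron markers, 1 was lower, the tubulin gene Tubb3 (−0.60 ± 0.14), and none higher. Of 5 choroid plexus markers, 2 were higher and 0 lower (median 2.98, with 5 above 0). Of 7 striatum markers, 0 were higher and 1 lower (median −1.22, with 0 above 0). Astrocyte markers had 1 of 6 higher and 2 lower (median −0.04). Neither the 5 oligodendrocyte markers (median 0.14) nor the 4 thalamus markers (median 0.19) had any at that p.

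**Figure D4:**
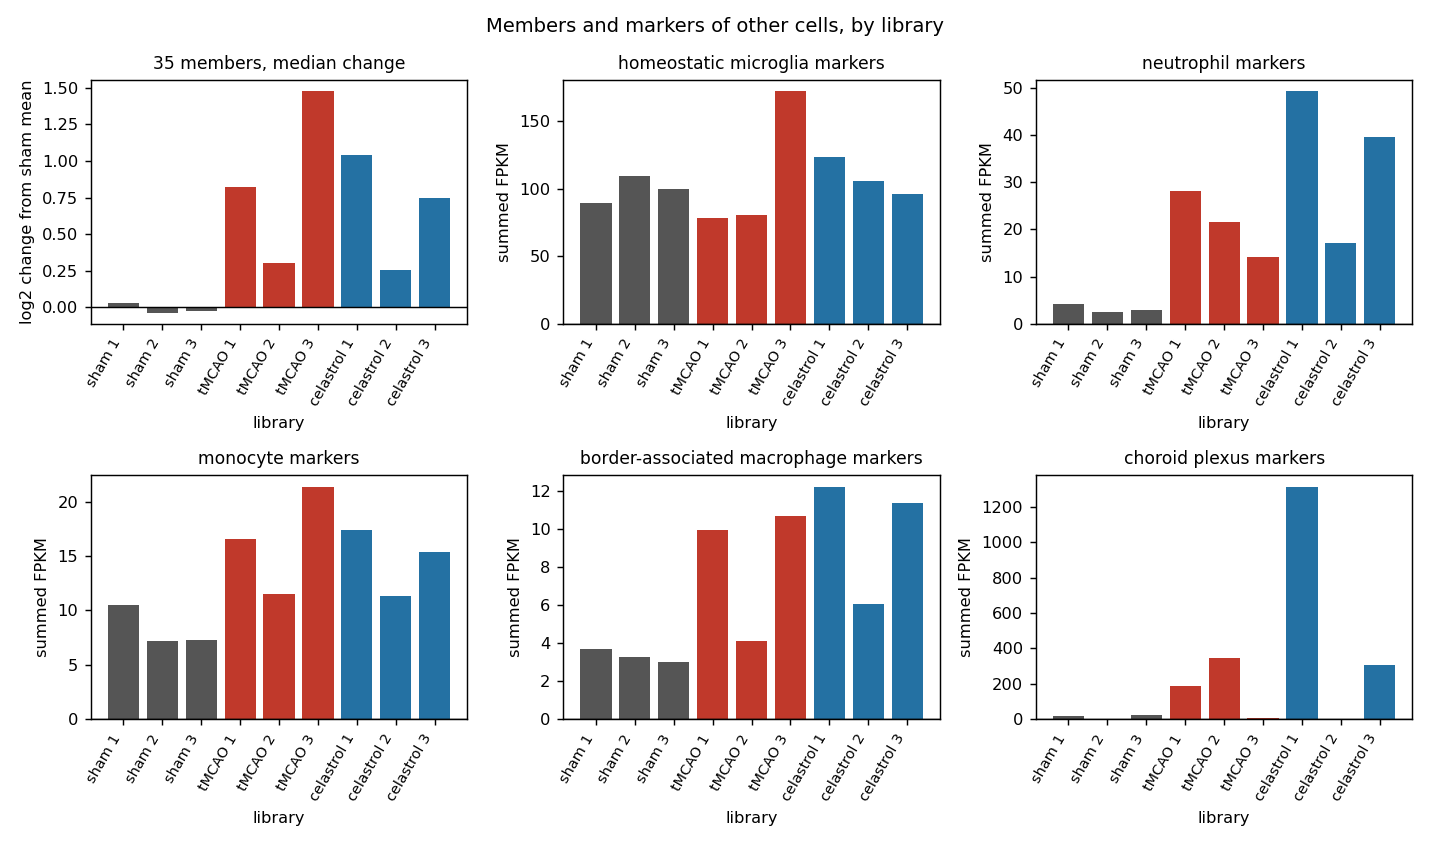
Median change of the 35 genes from the sham mean (log2 scale, first panel) and summed FPKM of marker lists for other cells, for each library. Neutrophil, monocyte and border-associated macrophage sums lie above sham in the 6 occluded libraries, homeostatic microglia sums are highest in tMCAO replicate 3, and choroid plexus sums vary widely within groups.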

How the data were processed

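The authors deposited 1 table of estimated counts (whole numbers) and FPKM values for every gene in every library. The submitters' processing notes name the build mm10, the trimmer cutadapt 1.9, the aligner HISAT2 2.0.4, StringTie 1.3.4d, DESeq2 and edgeR, without settings. Genes reaching 0.5 FPKM in 3 or more of the 9 libraries were tested in 1 edgeR 4.0.16 fit (R 4.3.3; glmQLFit, glmQLFTest, two-sided, TMM scaling, no block), with Benjamini-Hochberg adjustment over all 16982 genes and a threshold of 0.05. An approximate SE was taken as the fold change over the root of its F statistic. The procedure was tested on simulated data. Library by library changes used log2(FPKM + 0.5). Alternatives used DESeq2 1.42.0, limma 3.58.1, other filters and scalings, a replicate block, and each library left out.

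The 35 genes, the lists and the motifs were chosen with earlier results of these data known. Levels per library are given for genes past the threshold and, since there were fewer than 12, for the 12 with the smallest unadjusted p in both occluded groups against sham; Spp1 and others were added as examples after their values were seen. Of each other list, up to 2 genes are named by smallest unadjusted p, except in 1 list that is not reported here.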

Additional observations from a re-analysis of the deposited data

How the results depend on the processing

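The count of genes past the adjusted threshold depended on the tool and on single libraries. In tMCAO against sham it was 0 in edgeR, 16 by DESeq2, 3 with the replicate block (Cd14, Gpr84 and Msr1), 1 with only the groups compared (Gpr84) and 0 to 5 when 1 library was left out. Of all genes tested, 4.93% were called in either direction by DESeq2, 0.3% with the block and 0.177% with only the groups compared. Without celastrol replicate 2 that share was 0.536%. In celastrol against sham the count was 11 by DESeq2, 1 with the replicate block (Cd14) and 0 to 3 when 1 library was left out. Here the shares of all genes were 2.24% by DESeq2, 0.13% with the block and 0.271% without celastrol replicate 2. In both occluded groups against sham the count was 16 by DESeq2, 2 by limma on log2(FPKM + 0.1), 4 with the replicate block (Cd14, Chil3, Gpr84 and Msr1) and 0 to 8 when 1 library was left out. The matching shares of all genes were 4.7%, 0.171% and 0.377%, with 1.18% without celastrol replicate 2. The highest of these leave-one-out counts were without celastrol replicate 2. The cause was not tested. The other settings gave 0, and none gave a call in celastrol against tMCAO. Among the genes called, Arg1, Cd36, Chil3, Gpnmb, Gpr84, Lgals3 and Msr1 passed the filter through occluded libraries alone. They had to be higher to be tested, so these counts are partly set by the filter. The 2 limma calls were Chil3 and Gpr84, which are of this kind.

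Same-numbered libraries of different groups had correlated deviations of −0.156 to 0.198, over 0.1 in 3 of 9 pairs. Pairs with different numbers ran from −0.264 to 0.227, a wider range. The labels name no pairing, and with 3 libraries per group these correlations cannot settle whether the numbers mark a shared batch. With the replicate block, 2 genes reached an unadjusted p under 0.05 as lower in celastrol against tMCAO, against 1 without it. The share of all genes with the block was not computed for this count.

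With 1 library left out, unadjusted counts higher were 17 to 26 in tMCAO against sham, 13 to 23 in celastrol against sham and 0 to 3 in celastrol against tMCAO, and counts lower in the last were 0 to 4. FPKM ranges apart ran from 0 to 3 higher and 1 to 10 lower in celastrol against tMCAO, 0 to 4 lower in tMCAO against sham and 0 to 1 lower in celastrol against sham. Counts of ranges apart cannot fall when a library is left out. The shares of all genes at these settings were not computed, for the unadjusted counts or for the ranges. The median in celastrol against tMCAO ran from −0.49 to 0.15.

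Of single genes in tMCAO against sham, Aif1 was −0.20 by voom, −0.0408 and −0.0757 by limma on log2(FPKM + 0.5) and log2(FPKM + 0.1), −0.0015 in the other quasi-likelihood form, and −0.0698 with the replicate block. With 1 library left out, Aif1 ran from −0.73 to 0.29, Laptm5 from −0.28 to 0.38, Mpeg1 from −0.46 to 0.55 and Trem2 from −0.29 to 0.23, each lowest without tMCAO replicate 3. Trem2 was also −0.01 without sham replicate 3 and Aif1 −0.12 without sham replicate 1. The other printed fold changes of the 35 genes kept their direction under the settings run, and those of genes on other lists were run under no alternative. With limma on log2(FPKM + 0.5), which understates low genes, both occluded groups against sham gave 2.24 for Msr1, 1.76 for Arg1, 2.09 for Chil3, 0.89 for Cd36, 1.65 for Gpr84, 2.24 for Lgals3 and 0.86 for Gpnmb. Genes with few sham counts (Arg1, Msr1 and Chil3) are limited by depth, and their fold changes are the least secure.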
